A study of Drosophila melanogaster with 75 samples.

Results

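The baseline head transcriptome of control males is described here from 5 Affymetrix Drosophila arrays, each hybridised with RNA from 1 pool of 20 male heads. These are the 5 of the study's 15 arrays whose males were handled for 20 min in the presence of no female fly, and they were chosen by that treatment label and by the processing label R GCRMA. Of 18952 probe sets in the table, 183 AFFX control sets were left out and 18769 were described. The males were 5 days old and of the isogenized Canton-S strain. They grew up in groups of 20 or fewer, moved to single vials on day 4, and were pooled at random after the observation period. The other 10 arrays, from males paired with a female or with a male, were not used. One label is shared by every pool of the study and speaks of robust courtship over 70% of the observation time, and the shared treatment text mentions a female, so for these pools the arm was taken from the treatment label alone. Nothing in the labels says whether the 5 pools were collected or extracted together, and with 1 group there was no contrast and no test.

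The head of an adult fly holds the brain, the compound eyes, the antennae and mouthparts, and a lining of fat body, muscle, trachea and cuticle. Its RNA is therefore a mixture of several tissues, in which photoreceptors, neurons and glia stand beside metabolic and secretory cells. In such a mixture, fewer cells of a type and less RNA per cell cannot be told apart, and a gene confined to a small group of sensory neurons can fall below the level an array resolves.

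All values below are log2 of the deposited GC-RMA intensity, given for arrays 1 to 5 or as a mean ± SD over the 5 pools (n = 5). A probe set was counted as giving signal when it reached log2 4 on all 5 arrays. This level was set for the description. Of 92 genes of eggshell, testis, accessory gland and larval tissues, 95% averaged below 2.62. Probe sets differ in how strongly they bind their target, so the order of brightness is an order of signal and not of transcript number. The files used here carry no saturation flags, so a plateau among the brightest probe sets could not be looked for.

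Signal on all 5 arrays was found for 8765 probe sets (46.7%), and 9703 (51.7%) stayed below the level on all 5. The remaining 301 (1.60%) crossed it between pools. Of the 11981 genes with a probe set of their own, each taken by its brightest probe set, 7204 (60.1%) gave signal and 4597 (38.4%) did not. Below, a measured gene is one of these. Probe sets with no symbol or several symbols were not assigned to a gene, so rankings of genes leave them out. The 2 sides were well separated, with 9378 probe sets below log2 3 and only 457 between 3 and 4. Above that gap the levels spread widely, and the single values ran up to 15.55. The 100 brightest probe sets carried between 19.2% and 19.9% of the summed intensity of an array. A low probe set did not always mean a silent gene, because among the 1094 genes with several probe sets 488 (44.6%) had at least 1 on each side of the level.

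**Figure D1:**
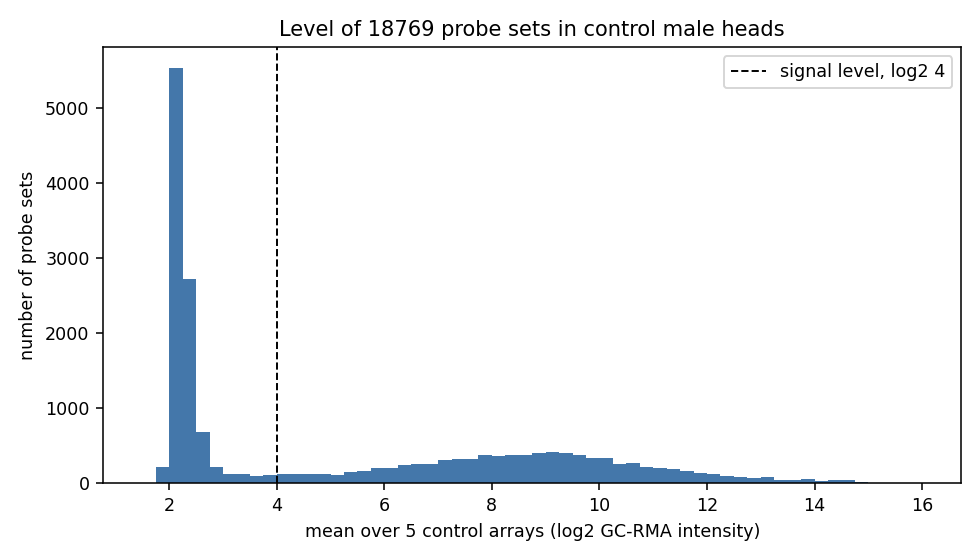
Histogram of the mean log2 GC-RMA intensity over the 5 control arrays (horizontal axis) against the number of probe sets (vertical axis). The dashed line is the signal level of log2 4. A narrow peak of 9378 probe sets lies below log2 3, and a broad second mound spans about log2 5 to 14.

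The brightest genes were those of translation, of the eye and of energy supply. Among the 25 brightest genes 12 were cytosolic ribosomal proteins, which build the translating ribosome. Arr2, an arrestin that silences light-activated rhodopsin, had the highest mean of the measured genes. It read 15.49, 15.45, 15.53, 15.51 and 15.54 on arrays 1 to 5. The pools were nearly level for Arr2, with an SD of 0.035. The highest single value on these arrays, 15.55, came from another probe set. The second arrestin of the eye, Arr1, averaged 15.05 ± 0.046. The mitochondrial ADP/ATP carrier sesB followed Arr2 with 15.28 ± 0.021, ahead of RpL41 with 15.24 ± 0.062. RpL41 was lowest on array 1, at 15.13, against 15.26 to 15.28 on the other arrays.

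Other genes among the 25 brightest were tied to secretion, lipid transport and the eye. Nplp2, a precursor of neuropeptide-like peptides, averaged 15.18 ± 0.087. The metallothionein MtnA, which binds heavy metals, averaged 15.04 ± 0.055. The fatty acid binding protein fabp reached 14.84 ± 0.046 and apolpp, the main lipoprotein of the haemolymph, 14.77 ± 0.076. The pools differed little for all of these. Pdh, the photoreceptor dehydrogenase that handles retinoids, averaged 14.78 ± 0.040, and retinin, a protein of the corneal lens, 14.68 ± 0.064. EbpIII, first known from the ejaculatory bulb, averaged 14.73 ± 0.118. Widest of the 25 was Bbd, with 14.97, 14.49, 14.49, 14.78 and 14.87. The uncharacterised CG8343 and CG8329 completed this group with 15.01 ± 0.071 and 14.85 ± 0.091. Of the 100 brightest genes 27 were ribosomal proteins, 13 belonged to oxidative phosphorylation, 7 to phototransduction and 5 to the odorant-binding proteins.

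The light response of the fly eye runs from rhodopsin through a Gq protein and phospholipase C to the TRP channels, and arrestins, a kinase and the retinoid cycle shut it off and reset it. All 19 genes measured for this cascade gave signal, against 60.1% of all genes. Their median level was 12.35, at the 96.6th percentile of all genes. The G protein subunit Gbeta76C averaged 14.67 ± 0.040. The channel gene trp read 14.21, 14.48, 14.24, 14.33 and 14.15, with array 2 highest by a small step. The scaffold inaD, which holds the cascade together, averaged 13.04 ± 0.063, and the photoreceptor surface protein chp 14.05 ± 0.076. The opsin genes ninaE and Rh2 to Rh6 and the phospholipase C gene norpA had no probe set under their own single symbol in the annotation used. Whether the array carries probes for them was not examined, so their levels are not described. The dimmest measured member was the opsin Rh7, at 7.79. The member that varied most was ninaD, a scavenger receptor needed for carotenoid uptake, with 8.23, 8.01, 8.81, 8.48 and 9.03. Its pools spanned about 1 log2 unit, with array 5 highest.

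Eye and body pigment genes were split. The ABC transporter genes bw and st, which carry eye pigment precursors, averaged 9.09 ± 0.218 and 7.98 ± 0.170. The vesicle trafficking gene g averaged 9.39 ± 0.203. The kynurenine enzyme gene cn and the body colour gene y stayed at 2.23 and 2.28. The tan gene t, whose enzyme frees histamine for reuse as the photoreceptor transmitter, averaged 13.19 ± 0.114. The gene e acts in the opposite step, and it read 7.33, 7.61, 7.42, 7.33 and 8.54. Array 5 stood above the other 4 for e, the only gene of this list at signal that was highest there. The dopamine synthesis genes Ddc and ple averaged 11.63 ± 0.172 and 8.11 ± 0.237.

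Genes of the synapse were mostly bright. Of 22 genes on the synapse and vesicle release list, which was drawn up by symbol, 21 (95.5%) gave signal on all 5 arrays. That compares with 60.1% of all genes, and the list median was 11.29. The fusion clamp cpx averaged 13.93 ± 0.303, the fusion protein Snap25 13.73 ± 0.192 and the vesicle protein Syngr 13.39 ± 0.134. For cpx array 1 was the low one, at 13.42, against 13.97 to 14.20 on the other arrays. The active zone scaffold brp was the dimmest member of the list, at 5.54. The list's widest spread was that of cac, the presynaptic calcium channel, described with the variable genes.

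Among 19 voltage-gated channel genes 14 (73.7%) gave signal, against 60.1% of all genes, with a median of 8.59. The hyperpolarisation-activated channel Ih averaged 11.92 ± 0.100, the potassium channel Sh 11.88 ± 0.135 and the calcium-gated potassium channel SK 11.70 ± 0.205. For SK array 4 stood apart at 12.06, against 11.55 to 11.66 on the other arrays. The sodium channel gene para, which carries the action potential, reached only 4.51 on average, and eag, Ca-alpha1T and na lay below the level on all arrays, at 2.78, 2.30 and 2.15. Of 29 transmitter receptor genes 23 (79.3%) gave signal, with a median of 8.55. The nicotinic subunit nAChRbeta1 averaged 12.83 ± 0.128, and the GABA-gated chloride channel genes Rdl and Lcch3 averaged 11.31 ± 0.103 and 10.45 ± 0.137. The widest of the receptors above log2 6 was nAChRalpha4, with 6.73, 7.44, 7.27, 8.21 and 7.59. Array 1 was lowest and array 4 highest for it.

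Neuropeptides are released by small groups of neurons and endocrine cells. Of the 30 genes measured 22 (73.3%) gave signal, against 60.1% of all genes, with a median of 9.37. After Nplp2 came Nplp3 with 13.90 ± 0.113 and the myosuppressin gene Ms with 13.04 ± 0.129. The insulin-like peptide Ilp2, made by a few brain cells, averaged 11.83, and the clock neuron peptide Pdf 11.49. The other 8 lay below the level on all 5 arrays, from CNMa at 3.57 to Akh at 1.87. Akh is the adipokinetic hormone, made in the corpora cardiaca. Eh, the eclosion hormone, had the widest spread of the list, with 6.61, 5.68, 7.69, 7.24 and 6.23. Array 3 was highest and array 2 lowest for it, about 2 log2 units apart.

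Chemosensory receptors gave almost no signal. Of 57 odorant receptor genes 1 gave signal on all 5 arrays, against 60.1% of all genes, and none of 56 gustatory receptors did. Among 53 ionotropic receptors 2 gave signal. The odorant receptor was Or43b, with 5.78, 5.70, 5.70, 5.70 and 5.56. Or63a crossed the level, with 4.55, 4.68, 4.25, 4.29 and 3.64, and the next odorant receptor, Or46a, averaged 2.65. The ionotropic receptors were Ir75a with 7.98 ± 0.239 and Ir76a with 5.81 ± 0.251, while Ir68a lay at the level, with 4.05 ± 0.368. Their SDs lay below the 90th percentiles of 0.382 and 0.517 for all probe sets at log2 6 to 8 and 4 to 6. Gustatory receptors reached no more than 2.47 on average, the value of Gr39a. These values show that the signal was not detectable on these arrays, not that the receptors are missing from the antennae and mouthparts.

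The odorant-binding proteins, small carriers secreted around sensory hairs and elsewhere, gave signal in 20 of 51 genes (39.2%) and not in the other 31. Of all genes 60.1% gave signal. Their levels ran over nearly the whole scale, from Obp50a at 2.04 upwards. Obp99c averaged 14.54 ± 0.146, Obp99b 14.27 ± 0.148 and Obp19d 14.23 ± 0.106, all among the 100 brightest genes. Obp69a varied most of those above log2 6, with 7.22, 6.67, 6.71, 6.14 and 5.79. The carrier lush, which acts in the detection of the male pheromone, averaged 4.87, and Obp83b 2.31.

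Housekeeping machinery was bright, and in the proteasome the dim members were recognisable by a name suffix. Of 34 cytosolic ribosomal protein genes 29 (85.3%) gave signal, against 60.1% of all genes. They lay between 12.22 and 15.24, with a median SD of 0.045. The 5 that did not were RpS5b, RpS28a, RpS10a, RpL10Aa and RpS19b, second copies of ribosomal genes, at 2.08 to 2.47. Between the bright and the dim ribosomal genes there was no intermediate gene. The last letter did not mark the dim ones, since RpL34a, RpS28b and RpL10Ab lay at 12.22, 14.85 and 14.55. Of 40 proteasome genes 27 (67.5%) gave signal, near the 60.1% of all genes. All 26 that do not carry a T or R suffix, the mark of duplicate genes, lay between 9.23 and 11.23. Of the 14 with the suffix 13 lay below the level, and the exception was Rpn13R at 4.32. The brightest proteasome genes were the lid subunit Rpn5 with 11.23 ± 0.036 and the core subunits Prosbeta7 with 11.08 ± 0.108 and Prosbeta4 with 11.07 ± 0.152.

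The same division held for oxidative phosphorylation. Of 58 genes without an L suffix, the mark of a like-named duplicate, 57 gave signal, with a median of 12.94, and the exception was ND-B8 at 2.41. Of 18 with the suffix 17 lay below the level, and the exception was COX7AL2 at 11.88. After sesB the brightest were the ATP synthase genes ATPsynC with 14.50 ± 0.045 and ATPsynF with 14.49 ± 0.032. ATPsynbeta read 13.57, 13.72, 14.03, 14.03 and 13.96, with arrays 1 and 2 below the rest. These suffix groups were formed after the levels had been seen. The 69 mitochondrial ribosomal protein genes all gave signal, against 60.1% of all genes, and ran from 7.56 to 12.13. The brightest were mRpS5 with 12.13 ± 0.277, mRpL33 with 11.58 ± 0.148 and mRpS9 with 11.54 ± 0.060.

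Translation factors and glycolysis gave signal in more of their genes than the 60.1% of all genes, and the vacuolar proton pump in a like share. Of 46 translation factor genes 37 (80.4%) gave signal, led by the elongation factor eEF1alpha2 with 14.58 ± 0.091. The helicase eIF4A averaged 14.53 ± 0.038 and eEF5 14.25 ± 0.086. Of 14 glycolytic genes 12 (85.7%) gave signal. Gpdh1, which shuttles reducing power, averaged 13.83 ± 0.240, enolase (Eno) 13.76 ± 0.042 and Tpi 13.62 ± 0.007. Of 31 genes of the vacuolar proton ATPase 18 (58.1%) gave signal, led by Vha16-1 with 14.51 ± 0.046. Constitutive chaperones gave signal in 15 of 16 genes, with Hsc70-4, the main cytosolic chaperone, at 14.65 ± 0.087 and Droj2, a DnaJ co-chaperone, at 13.72 ± 0.084. Both were lowest on array 1, at 14.50 and 13.57.

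Detoxification genes were measured in large families in which the share with signal was near the 60.1% of all genes. Of 81 cytochrome P450 genes 55 (67.9%) gave signal, with a median of 7.09. Cyp313a1 averaged 14.01 ± 0.233, Cyp6g1, known for insecticide resistance, 12.87 ± 0.110, and Cyp6d5 12.49 ± 0.210. Of the P450 genes above log2 6 Cyp9b1 varied most, with 6.92, 7.28, 7.02, 6.46 and 8.11, highest on array 5. The dim Cyp4g1 had a larger SD of 1.36, with 2.25, 2.38, 4.43, 3.31 and 5.43, most of them below or near the signal level. Of 69 glutathione and UDP-glycosyl transferases 43 (62.3%) gave signal. GstD1 averaged 13.30 ± 0.189, GstE12 13.16 ± 0.037 and GstE9 12.48 ± 0.219, and GstD2 varied most, between 5.44 on array 2 and 7.01 on array 5.

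Structural and protease-control genes were sparser. Of 81 cuticle protein genes 15 (18.5%) gave signal and 66 did not, against 60.1% of all genes with signal. Cpr72Ec averaged 14.09 ± 0.075, Cpr65Au 13.25 ± 0.118 and Cpr49Ae 12.08 ± 0.076. Of 28 serpins, inhibitors of the protease cascades of blood and immunity, 12 (42.9%) gave signal, led by Spn43Ab with 13.29 ± 0.128 and nec with 11.89 ± 0.256. The dim serpins lay at 3.93 or lower, with Spn31A the uppermost. Spn43Ab was lowest on array 2, at 13.06, against 13.30 to 13.37 on the other arrays.

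Regulators of time and sex gave signal in nearly all genes. All 12 circadian genes gave signal, against 60.1% of all genes, with a median of 9.11. The repressor cwo averaged 11.68 ± 0.254, the blue-light photoreceptor cry 11.51 ± 0.083 and the kinase dco 10.84 ± 0.134. Core members ran from Clk at 9.76 down to per at 6.85. Clock transcripts cycle over the day, and the labels give no hour of collection. The widest was Pdp1, with 10.12, 10.90, 10.80, 11.23 and 10.90, lowest on array 1.

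Of 8 sex determination genes 7 (87.5%) gave signal, against 60.1% of all genes. The transcription factor gene fru, which specifies male courtship circuits, averaged 10.12 ± 0.124, and the upstream switch Sxl 9.71 ± 0.243. The effector dsx read 8.80, 9.41, 9.20, 9.32 and 8.80, with arrays 1 and 5 low. The splicing regulators tra2 and tra averaged 8.85 ± 0.049 and 8.66 ± 0.172. The values do not separate the male and female splice forms of these genes. They are those of the brightest probe set: 6 others of fru averaged 2.18 to 6.02 and 1 other of dsx 2.54. For Sxl the 2 others were closer, at 8.89 to 9.66. The gene dsf stayed at 2.15. All 5 dosage compensation genes gave signal, from mle with 9.30 ± 0.229 to mof with 4.66 ± 0.089, and msl-2, the subunit that limits the complex to males, averaged 8.98 ± 0.095.

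Head Hox genes lay near the middle of the scale or at background, and few proliferation genes gave signal. The head Hox gene Dfd read 7.62, 7.89, 7.85, 8.06 and 7.52 and Scr 6.87, 7.53, 6.92, 7.03 and 6.24, at the 59.3rd and 51.8th percentile of all genes, while pb averaged 2.45. The trunk Hox gene Antp averaged 3.02. Of 18 genes for DNA replication and the cell cycle 4 (22.2%) gave signal on all 5 arrays, against 60.1% of all genes. They were led by the transcription factor Dp with 8.78 ± 0.258 and the helicase subunit Mcm6 with 5.66 ± 0.119, and PCNA lay at 2.71.

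**Figure D2:**
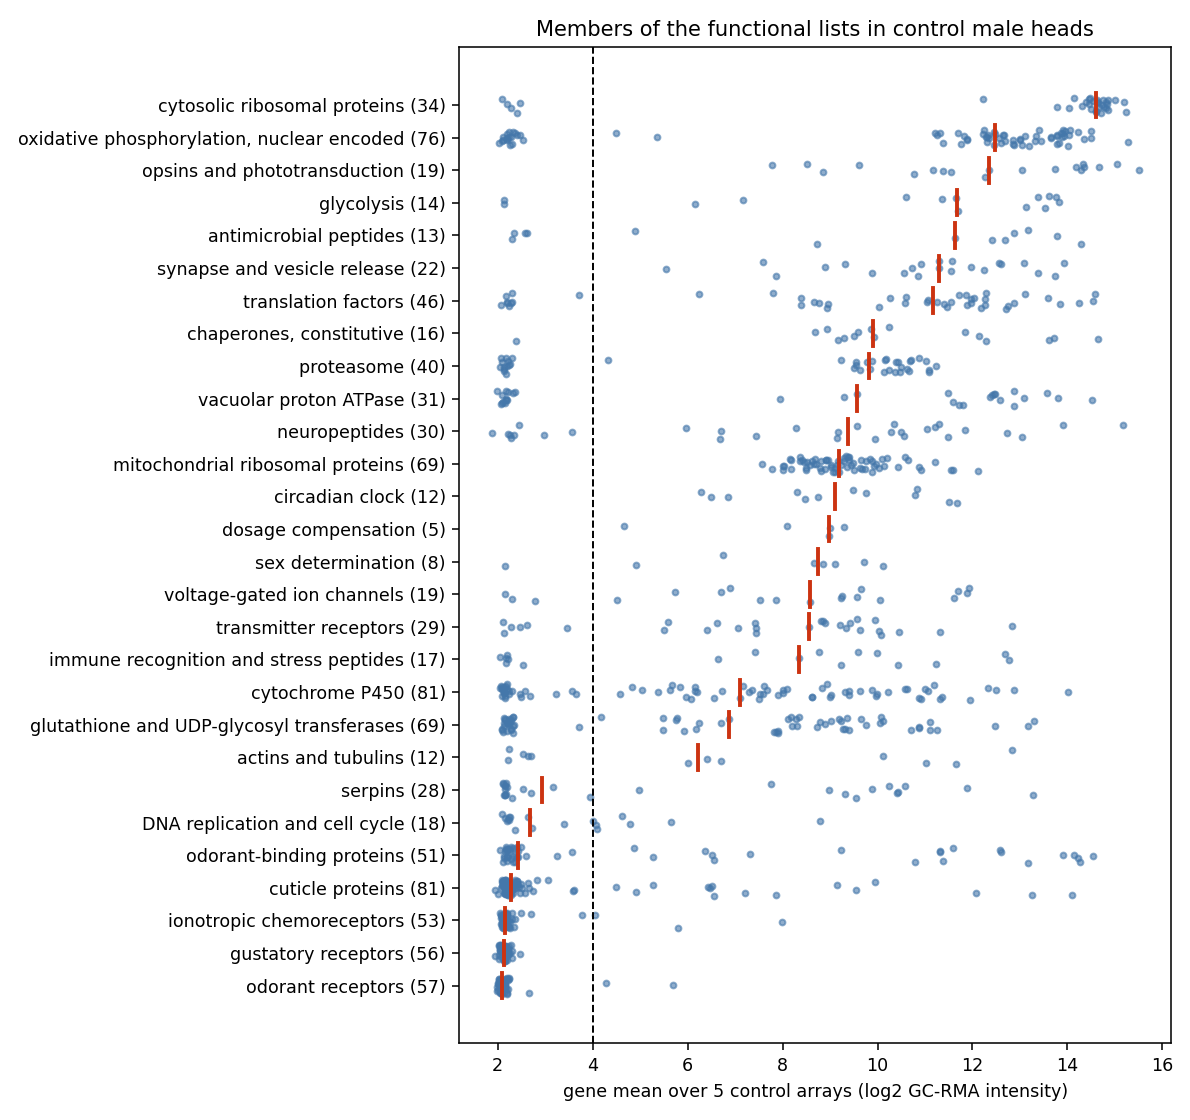
Mean log2 GC-RMA intensity over the 5 control arrays (horizontal axis) of each measured member (points) of the 28 functional lists with at least 5 measured genes (rows, number of genes in brackets). Red bars are list medians and the dashed line is the signal level of log2 4. Several bright lists, such as cytosolic ribosomal proteins and the proteasome, hold a separate set of members near log2 2.

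In 21 of the 28 functional lists with at least 5 measured genes, most members gave signal on all 5 arrays. In 20 lists the median member lay at or above the 50th percentile of all genes. The remaining lists were actins and tubulins, serpins, DNA replication and cell cycle, odorant-binding proteins, cuticle proteins and the 3 chemoreceptor families.

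The labelled tissue was checked against marker genes. Photoreceptor markers gave signal in 5 of 5 genes, neuronal markers in 6 of 8, glial markers in 11 of 12, muscle markers in 13 of 15 and fat body markers in 11 of 15. Beside the 60.1% of all genes these shares were 100% for photoreceptors, 75.0% for neurons, 91.7% for glia, 86.7% for muscle and 73.3% for fat body, so the neuronal and fat body counts lay nearest to that of all genes. The neuronal gene Appl averaged 12.74 ± 0.211, futsch 11.43 ± 0.211 and fne 11.29 ± 0.091. For futsch the 2 other probe sets averaged 2.04 and 3.08. The remaining neuronal markers were dimmer, with nSyb at 10.72, elav at 8.36, cac at 7.87, brp at 5.54 and para at 4.51. Below the level on all 5 arrays lay 1 glial, 2 muscle and 4 fat body markers. The glial enzyme Gs2 averaged 13.21 ± 0.148 and the fatty acid synthase FASN1 of fat body 14.63 ± 0.042. Muscle was represented by Mf with 13.53 ± 0.079.

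Haemocyte markers were mixed, with 10 of 17 (58.8%) at signal, about the 60.1% of all genes. The scavenger receptor crq and the collagen gene vkg averaged 11.50 ± 0.212 and 9.26 ± 0.141, but the plasmatocyte receptors NimC1 and eater lay at 2.94 and 2.38. No gene of 26 gut enzymes gave signal on all 5 arrays, and the highest, the maltase gene Mal-A1, averaged 4.51 ± 0.427. Tissues outside the head were also dark: 1 of 18 eggshell and egg genes, 1 of 28 testis genes, 1 of 27 accessory gland genes and none of 19 larval genes gave signal. These were gcl with 8.92 ± 0.092, mia with 5.12 ± 0.283 and Acp95EF with 5.31 ± 0.111. Of the yolk proteins, Yp1 and Yp2 averaged 2.42 and 2.25, but Yp3 read 9.90, 9.73, 9.59, 9.37 and 9.26. All 5 male pools were thus well above the level for Yp3.

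The spread between pools was small for most genes. Over the 8934 probe sets with a mean of at least log2 4 the median SD was 0.148, a factor of 1.11 for 1 SD, and 90% of them had an SD under 0.334. It narrowed as the level rose, with a median SD of 0.227 between log2 4 and 6, 0.142 between 8 and 10, and 0.050 above 14. Below log2 3 the median SD was 0.006, in the range where GC-RMA flattens values. Of 6507 genes with a mean of at least log2 6, 221 (3.40%) had a range of at least 1 log2 unit over the 5 pools, and 42 (0.645%) had a range of at least 2.

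The 5 most even genes among those above log2 10 were of several kinds. Tpi, the triosephosphate isomerase gene, read 13.62, 13.61, 13.62, 13.63 and 13.62. CAH1, a carbonic anhydrase gene, averaged 12.87 ± 0.015, the exchange factor gene RalGPS 10.06 ± 0.017, RpS28b 14.85 ± 0.018 and the phosphate carrier gene Mpcp2 14.65 ± 0.018. By list, the median SD was 0.045 for cytosolic ribosomal proteins, 0.066 for oxidative phosphorylation, 0.183 for synaptic genes and 0.200 for P450 genes. The lists were not matched for level. Over all probe sets the median SD was 0.050 above log2 14, 0.108 at 12 to 14 and 0.117 at 10 to 12. It was 0.142 at 8 to 10 and 0.184 at 6 to 8. The ribosomal value was thus near that of all probe sets above log2 14.

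**Figure D3:**
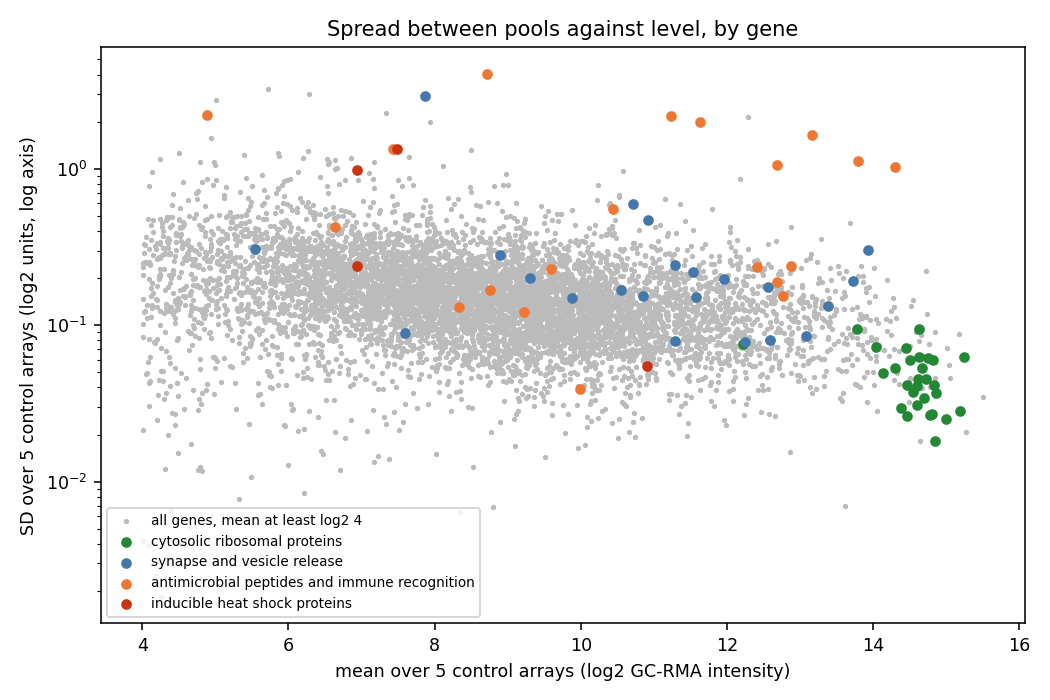
SD over the 5 control arrays in log2 units on a log axis (vertical) against mean log2 GC-RMA intensity (horizontal) for each gene with a mean of at least log2 4 (grey points), with 4 lists in colour. Antimicrobial and immune recognition genes (orange) reach SDs of 1 to 4, whereas cytosolic ribosomal proteins (green) stay below 0.1.

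Antimicrobial peptides had the highest median SD of the lists. They are secreted, chiefly by the fat body, when the Toll and Imd pathways sense microbes through peptidoglycan recognition proteins. Of 8 antimicrobial peptide genes with a mean of at least log2 6, 5 had a range of at least 2, and of 11 genes for recognition and stress peptides 3 did, against 0.645% of all genes. The median SD of the 9 antimicrobial peptides with a mean of at least log2 4 was 1.13. Array 3 decided this value: without it the median SD was 0.441. A second yardstick is the 90th percentile of SD among probe sets between log2 10 and 12, which was 0.238.

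AttD, an attacin, was the most variable gene of all above log2 6. It read 11.30, 12.15, 6.65, 2.53 and 10.97, bright on arrays 1, 2 and 5, middling on array 3 and at background on array 4. The diptericin DptB read 14.35, 14.11, 10.42, 12.86 and 14.07, with array 3 low. Defensin (Def) read 13.31, 14.18, 10.53, 9.53 and 10.59, and here arrays 1 and 2 stood above the other 3. Metchnikowin (Mtk) read 14.60, 14.31, 11.89, 13.63 and 14.51, and drosomycin (Drs) 14.97, 14.88, 12.49, 14.50 and 14.64. Both were lowest on array 3. The remaining bright members did not follow, since BomS2, Drsl5 and Drsl4 had SDs of 0.239, 0.188 and 0.236 at means of 12.88, 12.69 and 12.41.

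The recognition proteins that degrade peptidoglycan showed the same arrays as low. PGRP-SC2 read 13.42, 12.94, 8.25, 9.76 and 11.81, and PGRP-SB1 13.79, 13.24, 11.06, 12.32 and 13.02. PGRP-LB, which dampens the Imd response, read 7.61, 9.51, 6.17, 6.37 and 7.45, with array 2 alone high. Other recognition genes were even, such as the thioester protein gene Tep4 with 12.76 ± 0.153. Outside these lists, edin, a peptide gene induced by infection, read 13.93, 14.19, 9.16, 11.03 and 13.16. The serpin Spn88Eb read 11.72, 10.75, 9.12, 10.32 and 11.01. The gene pirk, a brake on the Imd pathway named here after its values were seen, read 8.04, 8.36, 6.32, 7.41 and 7.66.

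Across the 20 immune genes with a mean of at least log2 4, array 3 was the lowest of the 5 for 8 genes (40.0%), against 6.72% of all 7310 such genes. For 5 of the 20 it lay at least 1 log2 unit below every other array. Among the 42 genes of all kinds with a range of at least 2, arrays 3 and 4 were the lowest pair in 20 (47.6%), against 5.73% of the 6507 genes. The median of the fat body list read 11.26, 11.25, 11.67, 11.28 and 11.40, and that of the haemocyte list 5.25, 5.35, 4.74, 5.02 and 4.87. By these medians array 3 was the highest for fat body and the lowest for haemocyte markers. The median deviation of the fat body genes with a mean of at least log2 4 was instead highest on array 4, at 0.09, against 0.03 on array 3. Of the haemocyte markers 10 of 17 gave signal, while NimC1 and eater, which define plasmatocytes, did not. The mean log2 ratio of 3′ to 5′ signal was 2.66 on array 3 and 2.67 on array 4, against 2.68 to 3.54 on the others, and the part of these measures in the result was not tested.

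**Figure D4:**
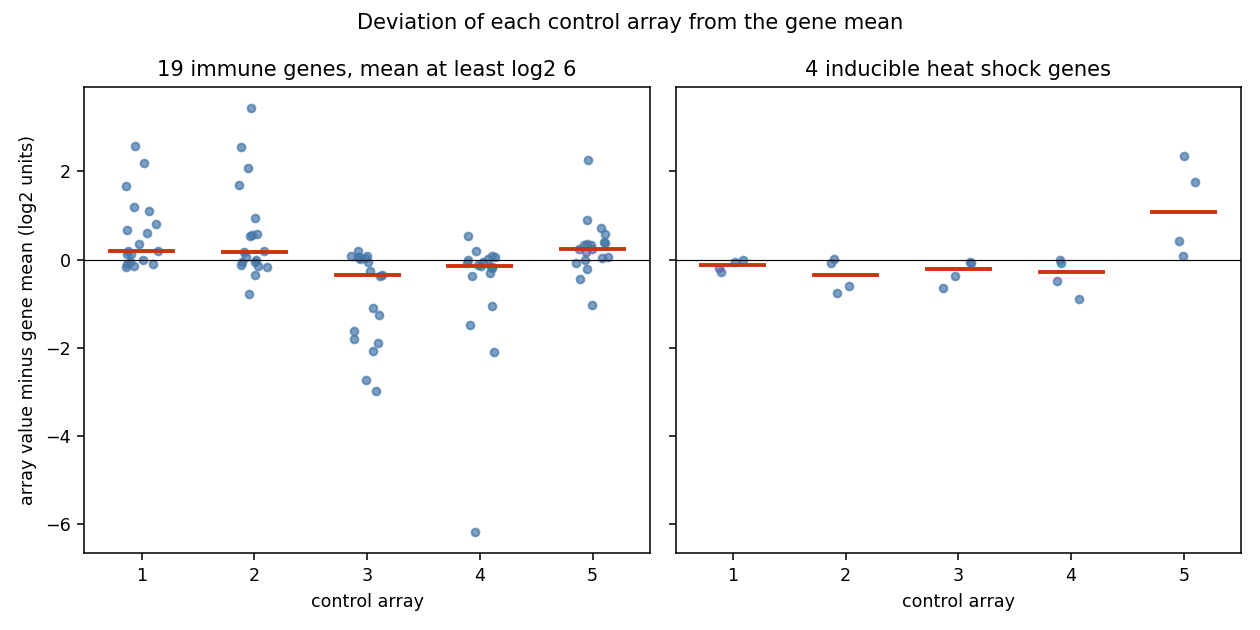
Deviation of each control array from the gene's mean over the 5 arrays, in log2 units (vertical axis), by array (horizontal axis), for 19 antimicrobial and immune recognition genes with a mean of at least log2 6 (left) and 4 inducible heat shock genes (right). Points are genes and red bars are medians. The lowest immune points lie on arrays 3 and 4, and the 2 highest heat shock points lie on array 5.

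Among the inducible heat shock genes, Hsp26 and Hsp68 set array 5 apart. Inducible heat shock genes code for chaperones made in large amounts under heat and other protein stress. Only 4 genes of that list were measured, and Hsp22, Hsp23 and the Hsp70 genes were not among them. Hsp26 read 7.42, 6.73, 6.85, 6.60 and 9.83, and Hsp68 6.65, 6.33, 6.58, 6.45 and 8.69. On array 5 both were more than 2 log2 units above each other array. Hsp27 read 6.74, 6.87, 6.88, 6.86 and 7.36, also highest on array 5, by a smaller step. Starvin (stv), a co-chaperone regulator, stayed between 10.84 and 10.99. Array 5 held 19 of the probe sets that lay at least 1 log2 unit above all other arrays (0.213% of 8934). The constitutive chaperones had no member with a range of 1 log2 unit.

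Other variable genes followed several patterns. The gene cac read 9.71, 8.72, 2.69, 9.63 and 8.58, dropping to background on array 3 alone. A second probe set for cac averaged 2.10, so the drop rests on 1 probe set. CG13428 read 9.43, 5.49, 3.53, 3.53 and 9.44, bright on arrays 1 and 5. Srg1 read 9.43, 9.50, 5.30, 4.60 and 7.87 and CG4269 8.58, 9.82, 6.16, 5.50 and 9.60, both lowest on arrays 3 and 4. CG42807 read 8.90, 8.47, 5.87, 7.14 and 7.88, with array 3 low. The tetraspanin gene Tsp42Ed read 9.24, 7.53, 8.51, 6.97 and 10.25, and CG14495 5.22, 4.75, 7.11, 6.45 and 7.45. The orders of the arrays differed between these last genes.

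Of the fat body markers none had a range of at least 2, and of the glial markers 1 did. The widest fat body marker was the lipase gene Lip4, which read 9.15 on array 1 and 9.47 on array 5 and lay lower on arrays 2 to 4, down to 7.82 on array 4. The widest glial marker was the GABA transporter gene Gat, with 5.80, 6.31, 7.36, 7.45 and 7.81, lowest on array 1.

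Array 1 differed from the others in a set of probe sets. Pairs of arrays correlated at 0.995 to 0.998 across all probe sets, with arrays 1 and 4 the least alike. In all, 96 of 8934 probe sets (1.07%) lay at least 1 log2 unit lower on array 1 than on every other array, against 22 (0.246%) on array 3 and fewer on each of arrays 2, 4 and 5. The vesicle fusion gene nSyb was one of them, with 9.68 on array 1. Menin (Mnn1) was another, with 4.02, 6.50, 6.80, 7.29 and 6.76. Among genes named after their values were seen, the glutamate transporter gene VGlut read 4.49, 6.30, 6.58, 6.97 and 6.33 and dpr12 4.64, 7.05, 7.14, 7.39 and 6.60. Of the 42 genes with a range of at least 2, 13 were lowest on array 1, against 20.4% of the 6507 genes.

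Other probe sets of the same genes were also more often low on array 1 than probe sets in general. The 87 such probe sets with 1 symbol belonged to 81 genes, and 50 of these genes had another probe set at a mean of at least log2 4. Those 73 other probe sets, which the choice did not use, lay on array 1 at a median of -0.11 relative to the mean of the other 4 arrays, against 0.04 for all 8934 probe sets. By the same measure the 87, which the choice required to be low, lay at -1.57. The step in the other probe sets of these genes was thus much smaller. Of the 73, 48 (65.8%) were lower on array 1 than that mean, against 42.8% of all. Array 1 also had the highest mean log2 ratio of 3′ to 5′ signal in the control transcripts, at 3.54, against 2.90, 2.66, 2.67 and 2.68 on arrays 2 to 5. It was the highest array in each of the 5 pairs, and the part of this ratio in the low probe sets was not tested. Over 82 genes of the synapse, channel, receptor and peptide lists the median deviation was -0.02 on array 1 and -0.15 on array 5. Over all genes it was 0.04 and -0.05. Array 1 was the lowest of the 5 for 28 of the 82 (34.1%) and array 5 for 40 (48.8%), against 20.6% and 33.7% of all genes with a mean of at least log2 4. But array 1 was also the highest for 26 of the 82 (31.7%), and array 5 for only 2 (2.44%), against 35.3% and 12.9% of all such genes.

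**Figure D5:**
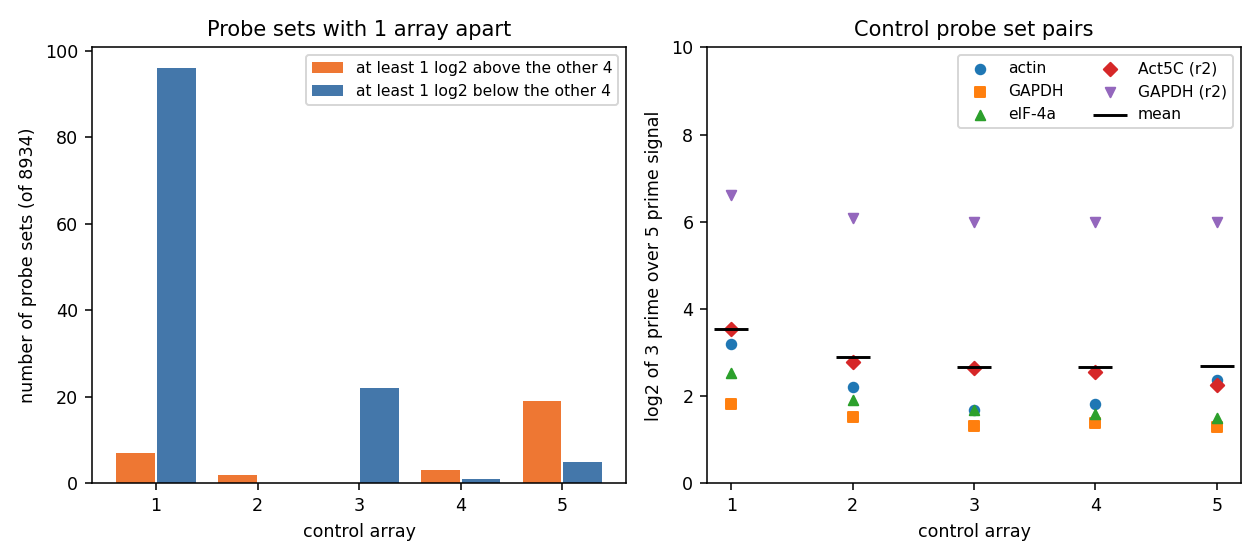
Left, number of probe sets (of 8934) in which 1 control array lay at least 1 log2 unit above (orange) or below (blue) the other 4. Right, log2 ratio of 3′ to 5′ signal of 5 control transcript pairs (symbols) and their mean (black bars) on each array. Array 1 has 96 low probe sets and the highest mean ratio, 3.54.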

How the data were processed

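RNA from 5 pools of 20 control male heads was hybridised to 5 arrays. Per the labels, the authors processed each array in 5 ways, with GCOS 1.2 and GCRMA named in the submitters' processing notes. What they deposited is intensity, whose range is that of a linear scale. Described here are the columns from GC-RMA run in R. That method models background from the probes' sequences, puts the arrays on a common scale and merges the probes of a set, so that dim values are flattened.

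Log2 was taken, after values under 1 were set to 1. In the platform annotation 13646 probe sets have 1 symbol, 402 have several and 4721 have none, and 0 symbols changed on lookup in a newer table of fly genes that served only to check names. Each gene was taken by its brightest probe set. Means, SDs (n = 5), counts and medians came from pandas 2.3.3 and numpy 2.4.6 under Python 3.11.15, with plots by matplotlib 3.10.9, after the code was tested on simulated data. Arrays carry no read depth, and the 5 arrays limit the precision.

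The arrays, the level of log2 4 and 47 gene lists (46 with measured members) were chosen with earlier results of these data known. Genes were named by rule: the 25 brightest, the 15 with the largest SD above log2 6, the 5 with the smallest SD above log2 10, and of each list the 3 brightest, the widest above log2 6 and, in sparse lists, each one at signal. All members of lists of up to 10 genes were eligible. Further genes, such as the dimmest member of a list, were named after their values were seen. Alternatives were other signal levels, each array left out, centring, and MAS5, dChip PM, dChip PM-MM and GeneSpring GC-RMA values. For the lists, the mean over the probe sets of a gene was a further one. No genome coordinates or sequences were used.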

Additional observations from a re-analysis of the deposited data

Results flagged for a closer look

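A value was singled out when 1 of the 5 arrays lay so far from the nearest other that the gap passed Dixon's 95% limit (0.71 of the range). Chance gives this in about 1 in 20 groups. It was met by 695 of 8934 probe sets (7.78%) and by 16 of the 180 named genes with a mean of at least log2 4 (8.89%), so the share among named genes was near that of all probe sets.

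On array 5 the inducible heat shock genes Hsp26 at 9.83, Hsp68 at 8.69 and Hsp27 at 7.36 stood above the other pools. The median of the 4 measured genes of that list was 9.26. Array 5 was also apart for the pigment and glial enzyme gene e at 8.54, high, and for the cuticle gene Cpr72Ec at 13.96, the dosage compensation gene mof at 4.51 and the median of the sex determination list at 8.58, all low.

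On array 1 the low values were nSyb at 9.68, Mnn1 at 4.02, Hsc70-4 at 14.50, Droj2 at 13.57 and RpL41 at 15.13. The same array had the high mean log2 ratio of 3′ to 5′ signal, 3.54. Whether the ratio and the low genes share a source was not tested.

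On array 3 cac lay at 2.69 and Drs at 12.49, both low. On array 2 FASN1 lay at 14.56 and Spn43Ab at 13.06, both low, and on array 4 the channel gene SK lay at 12.06, high. The steps of RpL41, FASN1, Hsc70-4, Droj2, Cpr72Ec, mof and the median of the sex determination list are under 0.2 log2 units. They were singled out because the other 4 pools agree closely.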

How the results depend on the processing

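Counts of probe sets with and without signal stayed within 1.5 times of the reported ones under every alternative run, from 7542 to 9647 and from 7595 to 10697. The number of lists at or above the 50th percentile was 20 in each. With the mean over the probe sets of a gene, the median of the sex determination list moved most, by 19.5 percentile points. The median SD of 0.148 became 0.130 to 0.155 with 1 array left out, 0.058 with no level filter, 0.107 in dChip PM and 0.122 in dChip PM-MM. The 153 probe sets with 1 array apart became 69 to 189 with 1 array left out (69 without array 1), 38 in dChip PM and 64 in dChip PM-MM. Alternatives chosen after seeing the data gave, for the 42 wide genes, 25 to 38 with 1 array left out, 22 in MAS5, 13 in dChip PM, 13 in dChip PM-MM and 27 in GeneSpring GC-RMA, and for the antimicrobial peptides a median SD of 0.441 to 1.30 with 1 array left out, lowest without array 3. The cause of these shifts was not tested. All 15 most variable genes kept both their lowest and highest array in GeneSpring GC-RMA, and 13 kept each in MAS5. Of the 25 brightest genes 19 to 25 were among the 25 brightest in the other processings. No paired analysis was possible because there is 1 group and no test. Dim values limit what can be said of absent genes.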
